A study of Mus musculus with 12 samples.

Results

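Metformin and tolvaptan were added to Aza in 6 of the 12 libraries of the series. These are the 3 F-MTAza and 3 NP-MTAza libraries, chosen by their treatment label, and they were set against the cells that had received Aza alone. All cells were Pkd1 heterozygous mouse proximal renal tubule epithelial cells (PKD1-Het), isolated from mice that carried the Pkd1 flox/- genotype with the TSLargeT transgene and used at passage 3. Each group was exposed for 24 h to PBS, to free Aza at 50 µM, to free Aza at 50 µM with 300 µM metformin and 10 µM tolvaptan (F-MTAza), or to the same 3 drugs at those doses in micelles (NP-MTAza). PBS, Aza, F-MTAza and NP-MTAza had 3 libraries each. No vehicle for the micelles and no group with metformin and tolvaptan but without Aza was analysed here. The labels do not say whether replicates were separate cultures, so p-values measure at most the spread between these libraries. The likelihood ratio test at single CpGs pools reads, and its p-values do not include that spread.

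Aza (5-aza-2′-deoxycytidine) is a cytidine analogue that is built into DNA during replication and traps DNA methyltransferases, so that methylation is lost passively as cells divide. Metformin activates AMPK, in part through an effect on mitochondria, and tolvaptan blocks the vasopressin V2 receptor and so lowers cAMP, a driver of cyst growth in polycystic kidney disease. In mammals methylation sits mostly at CpGs. Most CpGs in gene bodies and between genes are methylated, whereas CpG-dense promoters of active genes are kept free of it and those of germline genes are methylated in somatic cells.

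Methylation was read by reduced representation bisulfite sequencing, in which MspI cuts DNA at CCGG and the short fragments are sequenced after bisulfite conversion. A level is the percent of reads at a CpG that were methylated, taken from the deposited read numbers. The 6 combination libraries held 25336747 to 57671337 reads, and the 3 Aza libraries held 32132918 to 47574333, with medians of 7 to 9 reads per listed CpG. Aza replicates 1 and 2 could not be used by position, since their read numbers did not follow those of other libraries CpG by CpG. In the 21 pairs of libraries that include either, read numbers had Spearman correlations of 0.00396 to 0.0150. In the 45 other pairs these were 0.315 to 0.613. Correlations of level were -0.00255 to 0.00277 in the 21 pairs and 0.642 to 0.913 in the 45. Of the CpGs listed in Aza replicates 1 and 2, 34.0% and 35.6% lay within 100 bp of a CCGG, against 51.0% to 70.9% in the other 10 libraries. Over the CpGs listed in all 12 libraries and unmethylated in PBS, Aza replicates 1 and 2 stood at 41.4% and 44.7%, where Aza replicate 3 stood at 1.12%. Comparisons by position therefore used Aza replicate 3 alone (n = 1), and ask whether it lay inside the range of the 6 combination libraries. They carry no test unless one is named.

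Without regard to position, mean methylation over the CpGs that each library listed, weighted by reads, did not separate the combination from Aza. The lists differed in make-up. CpGs with 16 or more CpGs within 100 bp on either side made up 5.74%, 5.02% and 11.6% of those listed in Aza. In the 6 combination libraries they made up 8.36% to 10.4%. Mean methylation over all listed reads was 46.6%, 46.4% and 47.8% in F-MTAza, 45.0%, 45.5% and 44.4% in NP-MTAza, and 45.7%, 46.7% and 44.9% in Aza. The groups overlapped, with NP-MTAza replicate 3 lowest and F-MTAza replicate 3 highest of the 9. The mean was 45.9% ± 1.23 (SD, n = 6) in the combination and 45.8% ± 0.889 (SD, n = 3) in Aza, and the difference of 0.182 points had p = 0.857 in an exact permutation test, two-sided. With 84 ways to assign 6 and 3 libraries, p cannot fall under 0.0119.

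The level distribution also overlapped. The share of listed CpGs at 0 to 10% methylated was 25.3% ± 0.754 (SD, n = 6) in the combination and 24.2% ± 3.09 (SD, n = 3) in Aza (two-sided exact permutation test, p = 0.488). The Aza libraries held 26.8%, 20.7% and 24.9% of their CpGs in this class, so that replicate 2 was lowest of the 9 and replicate 1 was highest. At 40 to 60% the shares were 24.4% ± 0.805 (SD, n = 6) and 24.7% ± 1.63 (SD, n = 3), with p = 0.595 by the same exact test. At 90 to 100% they were 6.55% ± 0.962 (SD, n = 6) and 6.94% ± 1.72 (SD, n = 3), with exact p = 0.667. Adjusted over the 3 shares, every p was 0.667. Which Aza library was left out decided the sign of each of these differences: without Aza replicate 2 the 0 to 10% share differed by -0.602 points and the 40 to 60% share by 0.224, without Aza replicate 1 the 90 to 100% share differed by 0.374, and without Aza replicate 3 the mean differed by -0.234.

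By position, 462093 CpGs had 5 or more reads in Aza replicate 3, the 6 combination libraries and the 3 PBS libraries. They are called matched CpGs here. With each counted equally, Aza replicate 3 stood at 41.1%. The F-MTAza libraries stood at 43.7%, 42.9% and 43.8%, and the NP-MTAza libraries at 42.3%, 42.7% and 41.2%. The Aza library was thus below all 6, closest to NP-MTAza replicate 3, and the mean of the 6 was 1.68 points above it. The PBS libraries stood at 64.4%, 65.8% and 64.4%, far above all 7.

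Weighting by reads moved Aza replicate 3 to inside the range, at 49.6% against a lowest, median and highest of 48.1%, 50.7% and 52.9%. This change of position came with a small number of very deep CpGs. Only 6378 matched CpGs had 200 or more reads in some library, yet they held 57.8% of the reads of Aza replicate 3. Over the other 455715, weighted by reads, Aza replicate 3 stood at 41.6% and the 6 at 42.0% to 44.7%, so that it was again below all of them.

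The read totals of the libraries ran with these levels. NP-MTAza replicate 3, with the most reads of the 6, had the lowest equal-weight level, and F-MTAza replicates 1 and 3, with the fewest, had the highest. Aza replicate 3 had 47574333 reads, close to the 47709886 of NP-MTAza replicate 2. The part of depth in the order of the libraries was not tested.

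The distribution over matched CpGs shows where Aza replicate 3 differed from the 6. At 10 to 40% methylated it had 19.5% of CpGs, above the combination range of 17.7% to 18.9%. At 60 to 90% it had 27.4%, below the range of 28.0% to 29.9%. The intermediate class at 40 to 60% held 27.6% in Aza replicate 3, 23.8%, 24.3% and 23.2% in F-MTAza, and 25.5%, 25.6% and 28.1% in NP-MTAza. The class at 90 to 100% held 2.07%, against 5.48%, 4.25% and 5.96% in F-MTAza and 3.47%, 3.09% and 1.73% in NP-MTAza. In both classes Aza replicate 3 lay inside the range of the 6, next to NP-MTAza replicate 3 and outside the range of F-MTAza. Reduced to 5 reads at every CpG, which removes the difference in depth, Aza replicate 3 had 38.3% at 40 to 60% (6 libraries, 35.1% to 38.5%) and 6.58% at 90 to 100% (6.47% to 9.81%), so that its position in both classes was the same. The 0 to 10% class did not keep its position: Aza replicate 3 had 23.4% at listed depth, inside the 23.2% to 24.04% of the 6, and 26.2% at 5 reads, above their 25.7% to 26.1%.

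**Figure D1:**
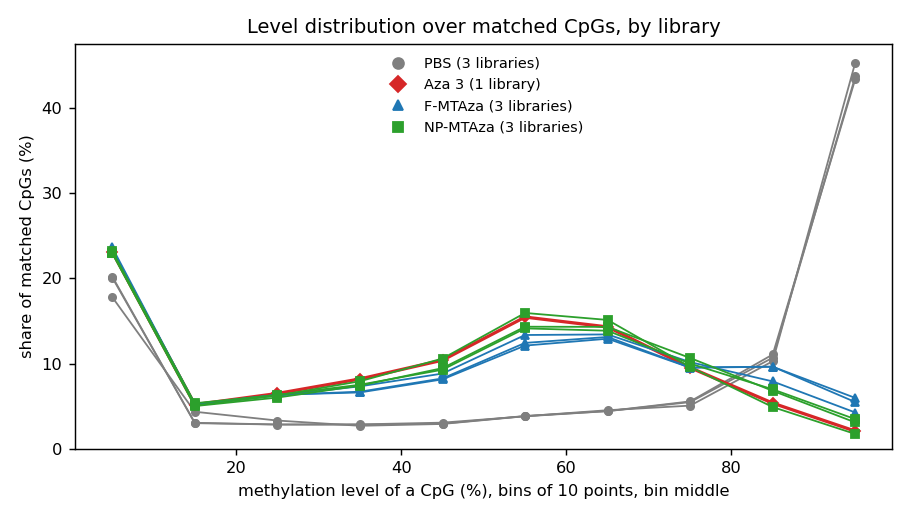
Share of the 462093 matched CpGs (y axis, %) in bins of 10 points of methylation level (x axis, %), with 1 line per library and colours by group. The PBS lines end with 43.4% to 45.3% of CpGs at 90 to 100%, and all 7 treated libraries end between 1.73% and 5.96% with a broad middle, where the Aza replicate 3 line runs close to that of NP-MTAza replicate 3.

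CpGs highly methylated in PBS have the most methylation to lose. Of the matched CpGs, 206401 had 90% or more of pooled PBS reads methylated. With each counted equally they stood at 61.8% in Aza replicate 3, at 65.8%, 64.8% and 66.0% in F-MTAza and at 63.6%, 64.1% and 62.1% in NP-MTAza. This put Aza replicate 3 below all 6, every F-MTAza library was above every NP-MTAza library, and the mean of the 6 was 2.63 points above Aza replicate 3. PBS stood at 96.1%, 96.7% and 96.4%, a level that the choice of these CpGs set. Weighted by reads, Aza replicate 3 was inside the range, at 62.6% against 62.0% to 65.2%. Restricted to CpGs under 200 reads it was below, at 61.6% against 61.8% to 65.9%.

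Few of these CpGs held on to nearly all of their methylation. Among those with 20 or more reads in a library, 9.52% were still at 80% or more in Aza replicate 3. The share was 16.7%, 16.2% and 16.3% in F-MTAza and 12.8%, 13.5% and 8.67% in NP-MTAza. That of Aza replicate 3 was below 5 of the 6 and above NP-MTAza replicate 3. Almost none reached 20% or less, with 0.2005% in Aza replicate 3 and 0.0693% to 0.195% in the 6. Each share rests on the CpGs that were deep in that library, 20192 in F-MTAza replicate 1 and 114934 in NP-MTAza replicate 3, so depth and the set of CpGs differ along with the treatment.

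The same CpGs tended to hold methylation in all drug-treated libraries. Sorted by their level in Aza replicate 3, which fixes the order there, the 5155 highly methylated CpGs at 20 to 40% had 53.4% to 58.2% in the combination libraries. The 35790 at 40 to 60% had 57.7% to 61.5%, the 44200 at 60 to 80% had 63.0% to 66.2%, and the 8972 at 80 to 100% had 71.5% to 75.4%. The combination levels followed the order set by Aza replicate 3, over a narrower span.

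Density of CpGs went with retention in every drug-treated library. Counted equally, highly methylated CpGs with 1 to 3 CpGs within 100 bp on either side stood at 57.5% in Aza replicate 3 and at 57.9% to 61.2% in the 6. With 4 to 7 CpGs they stood at 60.3% and at 60.7% to 64.6%. With 8 to 15 they stood at 65.2% and at 65.4% to 69.9%. With 16 or more, they stood at 75.3% in Aza replicate 3, at 79.3%, 78.9% and 79.4% in F-MTAza and at 76.6%, 76.5% and 74.9% in NP-MTAza. Aza replicate 3 was thus below all 6 in the 3 sparser classes and inside the range in the densest, above NP-MTAza replicate 3 alone. That pattern held under this weighting only: weighted by reads, Aza replicate 3 was inside the range with 1 to 3 CpGs (58.9% against 58.6% to 61.8%), with 4 to 7 (62.3% against 61.4% to 64.6%) and with 16 or more (75.3% against 75.04% to 79.6%), and below it with 8 to 15 (65.8% against 66.1% to 70.3%).

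**Figure D2:**
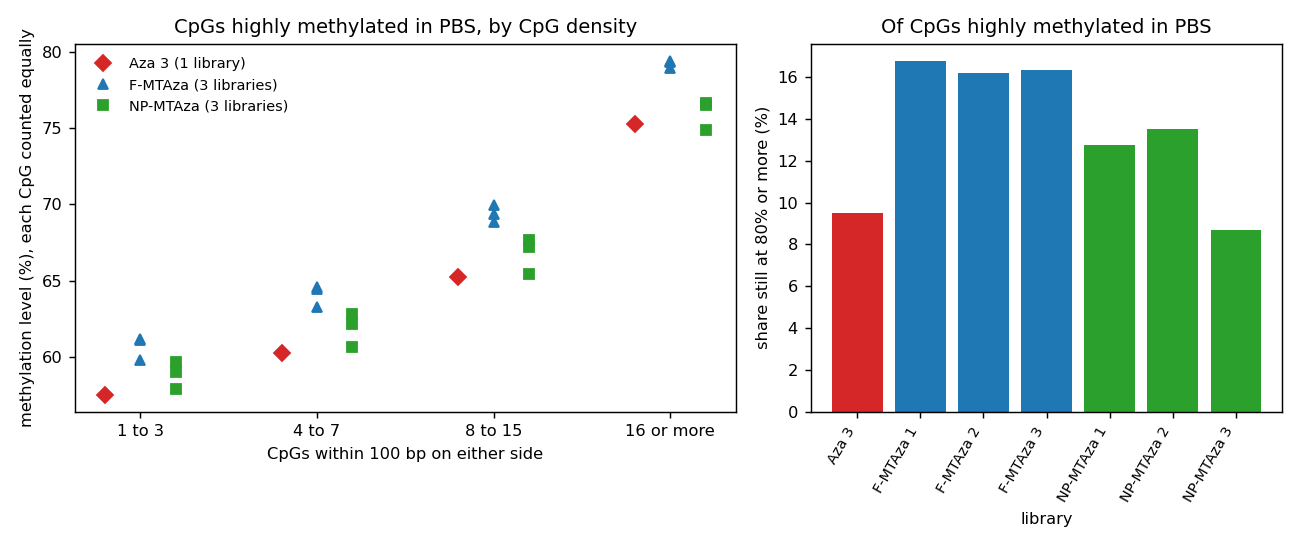
CpGs at 90% or more in pooled PBS. Left, their methylation level (y axis, %, each CpG counted equally, axis not from 0) by the number of CpGs within 100 bp on either side (x axis), with 1 point per library. Right, the share (y axis, %) still at 80% or more in each library (x axis), among CpGs with 20 or more reads there. Levels go from 57.5% to 75.3% with density in Aza replicate 3, whose point is at or near the bottom of each class, and its bar of 9.52% is taller than that of NP-MTAza replicate 3 only.

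The bases around the CpG made a smaller difference. Among highly methylated CpGs, those in CCGG, the sequence that MspI cuts, stood lowest, at 52.5% in Aza replicate 3 and 52.7% to 59.0% in the 6. Those in GCGC stood highest, at 65.3% and 65.6% to 69.4%. By annotation, highly methylated CpGs in promoters stood at 67.2% in Aza replicate 3 and 67.4% to 71.04% in the 6, those in exons at 64.4% and 64.7% to 69.2%, those in introns at 60.3% and 60.6% to 64.5%, and those between genes at 61.0% and 61.3% to 65.1%. These values count each CpG equally, and by them Aza replicate 3 was just below the range in each class. Weighted by reads it was inside the range in CCGG, GCGC, exons and intergenic sequence, and in promoters it stood at 65.8% against 63.0% to 66.9%, with the mean of the 6 below it by a difference of -0.988 points.

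At the other end, 91049 matched CpGs were at 10% or less in pooled PBS and stayed low. They stood at 1.17% in Aza replicate 3, at 1.31%, 1.22% and 1.30% in F-MTAza and at 1.31%, 1.23% and 1.12% in NP-MTAza. Here Aza replicate 3 was inside the range. PBS replicate 2 stood at 3.87%, above the 1.44% and 1.38% of the other PBS libraries.

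**Figure D3:**
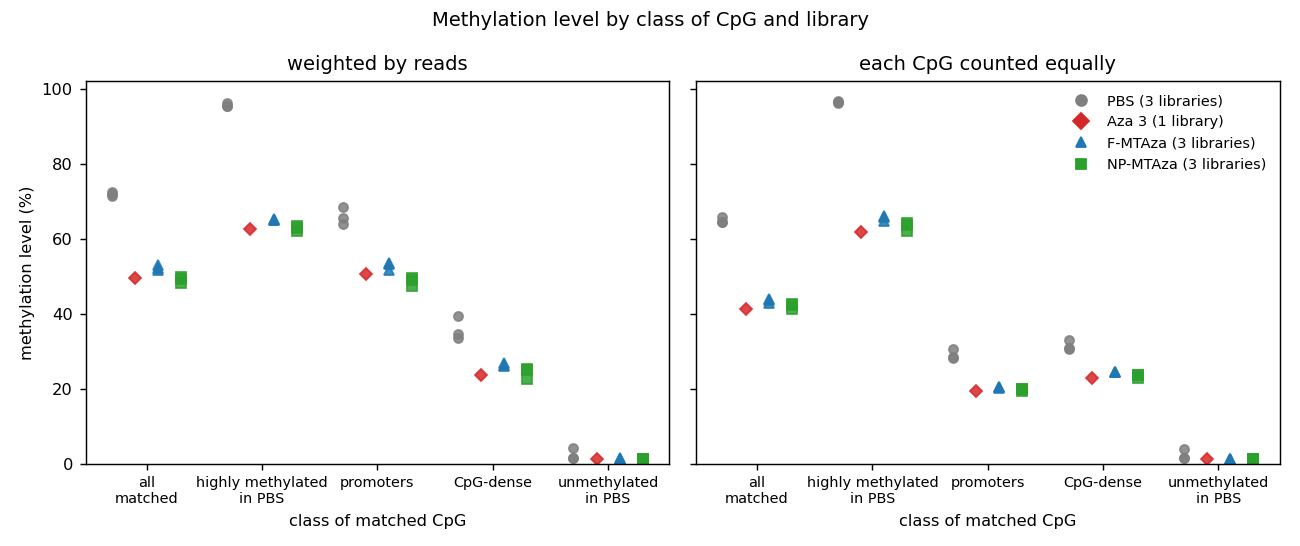
Methylation level (y axis, %) of 5 classes of matched CpG (x axis) in each library, weighted by reads (left) and with each CpG counted equally (right), with 1 point per library. Drug-treated libraries lie close together within each class, and the promoter class changes from about the level of all CpGs when weighted by reads to 19.3% to 20.5% when each CpG counts equally.

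Promoters, spanning the 2000 bp before and the 500 bp after each transcription start, held 93200 matched CpGs. Counted equally these stood at 19.3% in Aza replicate 3, at 20.5%, 20.3% and 20.5% in F-MTAza and at 19.8%, 19.99% and 19.3% in NP-MTAza. This put Aza replicate 3 inside the range, just above NP-MTAza replicate 3. Weighted by reads the same class stood at 50.5% in Aza replicate 3 and at 47.3% to 53.6% in the 6. That value says little about most promoters, since 988 CpGs with 200 or more reads held 81.7% of the promoter reads of Aza replicate 3. The predicted genes Gm10800 and Gm10801 alone held 41.3% and 30.7% of them at 17 and 14 CpGs. Without the deep CpGs, Aza replicate 3 stood at 19.3%, below the 19.5% to 21.7% of the 6.

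Around start sites, the levels of all treated libraries dipped together. In the 250 bp before the start site, 19084 matched CpGs stood at 13.2% in Aza replicate 3, at 13.03% to 14.1% in the 6 and at 19.6% in PBS. Between 4750 and 5000 bp upstream, 1010 CpGs stood at 46.0%, at 48.0% to 52.9% and at 76.9%. Of the 40 bins of 250 bp within 5000 bp of a start site, Aza replicate 3 was below all 6 combination libraries in 24, inside their range in 16 and above it in 0.

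**Figure D4:**
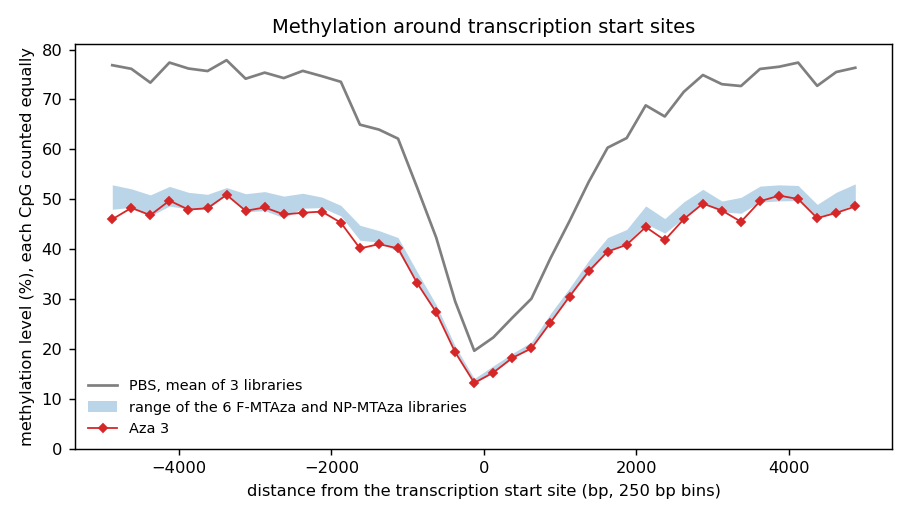
Methylation level (y axis, %, each CpG counted equally) of matched CpGs by distance from the nearest transcription start site (x axis, bp, bins of 250 bp). The grey line is the mean of the 3 PBS libraries, the blue band the range of the 6 combination libraries and the red line Aza replicate 3, which runs along the lower edge of the band and falls below it in 24 of 40 bins.

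Single promoters were then compared over all reads listed in them. Of 23511 promoters, 12180 had 20 or more reads in each of the 10 libraries. A limma fit on the arcsine square root scale, in which the lone Aza library is assumed to vary like the others, called 0 of 12180 promoters (0%) between the combination and Aza replicate 3, where a call needs 10 points and a Benjamini-Hochberg p below 0.05. At an unadjusted p under 0.05 there were 276, or 2.27%, and on a log2 scale limma called 0 and had 309 at an unadjusted p under 0.05. Aza replicate 3 was below all 6 combination libraries at 11.6% of promoters and above all 6 at 8.74%. For comparison, F-MTAza replicate 1 was the lowest of these 7 libraries at 17.2% of promoters and the highest at 18.2%, and NP-MTAza replicate 3 at 10.1% and 9.48%.

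Promoters that were methylated in PBS leaned to lower levels in Aza replicate 3. Among the 1947 at 75% or more in PBS, Aza replicate 3 was below all 6 at 17.2% and above all 6 at 6.68%. Among the 5217 under 10% in PBS these shares were 6.86% and 10.0%, but a promoter at 0% in one of the 6 cannot be lower in Aza replicate 3. The median level of the 1947 was 58.6% in Aza replicate 3 and 58.8% in NP-MTAza replicate 3, while the median of the 5217 was 1.04% and 1.14%.

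The next results are for promoters named by rule, the 3 with the most reads from each of 16 gene lists and those of the genes that the study discusses beside methylation or expression. Among 53 such promoters, Aza replicate 3 was inside the range of the 6 at 40, below it at 10 and above it at 3. Over matched CpGs alone, 51 could be compared, with 40 inside, 8 below and 3 above, not all of them the promoters in that position over all reads. The background over all tested promoters is 11.6% below and 8.74% above, and over the 8217 with enough matched CpGs, taken alone, 10.6% and 9.65%. Values below are levels in percent over all reads in the promoter, on mm9, and no named promoter passed the limma test, whose lowest adjusted p over all promoters was 1. The genes Pkd2, Ctnnb1, Wnt4 and Daglb had under 20 reads in some library and were not tested.

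Polycystic kidney disease and cilia genes came first. Pkd1 encodes polycystin 1, a large membrane protein of the primary cilium whose loss causes most polycystic kidney disease. Its promoter (chr17:24684895-24687395) stood at 39.5%, 62.1% and 40.8% in PBS and at 30.3% in Aza replicate 3. It stood at 21.2%, 32.3% and 34.9% in F-MTAza and at 26.2%, 23.4% and 31.1% in NP-MTAza, with Aza replicate 3 inside the range. Bbs1, a subunit of the BBSome that carries cargo into cilia, stood at 33.0% in Aza replicate 3, just below the 34.1% to 49.4% of the 6. Ganab, the glucosidase subunit needed for polycystin folding, stood at 18.9% against 19.6% to 28.6%. Of the 21 tested members of this list, 16 were inside, 4 below and 1 above. Over matched CpGs 19 could be compared, with 14 inside, 2 below and 3 above, so a lean to one side was not kept. All tested promoters had 11.6% below and 8.74% above, and over matched CpGs 10.6% and 9.65%. The median difference of the list was 0.704 points against 0.411 over all promoters.

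The sequence of a promoter stretch shows how the reads sample such a region. For Pkd1, Gdnf, Sall1 and Tdrd1, chosen because Pkd1, Gdnf and Sall1 are named by the study and Tdrd1 is a germline gene, the 300 bases upstream of the start site with the most matched CpGs are printed 5′ to 3′ on the strand of the gene, with CpGs in capitals.
Pkd1: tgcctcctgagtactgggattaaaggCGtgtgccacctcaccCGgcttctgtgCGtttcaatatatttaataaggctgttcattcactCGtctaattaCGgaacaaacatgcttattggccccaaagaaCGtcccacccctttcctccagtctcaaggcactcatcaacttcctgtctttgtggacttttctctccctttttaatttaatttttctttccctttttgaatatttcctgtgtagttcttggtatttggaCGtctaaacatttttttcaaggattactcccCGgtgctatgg
Gdnf: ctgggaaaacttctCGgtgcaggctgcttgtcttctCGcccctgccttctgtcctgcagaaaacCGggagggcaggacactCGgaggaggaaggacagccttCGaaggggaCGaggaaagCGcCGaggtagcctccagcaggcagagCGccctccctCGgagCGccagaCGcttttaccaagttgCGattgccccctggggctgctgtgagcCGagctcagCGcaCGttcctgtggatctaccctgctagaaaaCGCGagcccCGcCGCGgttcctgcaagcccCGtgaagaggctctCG
Sall1: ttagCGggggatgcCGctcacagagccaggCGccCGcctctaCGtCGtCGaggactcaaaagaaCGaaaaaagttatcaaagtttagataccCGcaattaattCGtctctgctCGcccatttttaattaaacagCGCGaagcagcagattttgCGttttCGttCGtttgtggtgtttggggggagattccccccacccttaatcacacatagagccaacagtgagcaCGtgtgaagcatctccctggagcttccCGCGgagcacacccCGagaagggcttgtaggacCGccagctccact
Tdrd1: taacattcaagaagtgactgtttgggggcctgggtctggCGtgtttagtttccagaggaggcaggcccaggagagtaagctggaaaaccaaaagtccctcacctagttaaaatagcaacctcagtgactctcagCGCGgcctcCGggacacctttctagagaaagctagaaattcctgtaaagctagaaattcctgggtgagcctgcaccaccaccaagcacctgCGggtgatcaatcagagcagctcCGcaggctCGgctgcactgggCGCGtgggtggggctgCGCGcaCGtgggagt

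The Pkd1 stretch (chr17:24685475-24685774, plus strand) holds 8 CpGs, 6 of them matched, which together stood at 57.6% in Aza replicate 3 and at 48.3% to 71.3% in the 6. The Gdnf stretch (chr15:7760101-7760400, plus strand) holds 23 CpGs, 15 matched, at 34.6% in Aza replicate 3 and 34.1% to 59.2% in the 6. The Sall1 stretch (chr8:91568972-91569271, minus strand) holds 21, 12 matched, at 72.0% and 54.7% to 81.5%. The Tdrd1 stretch (chr19:56900399-56900698, plus strand) holds 12, 11 matched, at 71.6% and 64.3% to 86.2%. In each stretch Aza replicate 3 was inside the range of the 6, and in each the 6 spread over more than 20 points. The Pkd1 CpG at position -1322 from the start site stood at 98.6% in pooled PBS, at 71.3% of 87 reads in Aza replicate 3 and at 70.9% in the pooled combination.

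Kidney development genes included the promoter farthest below the range among those named. Gdnf encodes a ligand of the Ret receptor that drives outgrowth of the ureteric bud. Its promoter (chr15:7759011-7761511) stood at 70.99%, 74.2% and 56.5% in PBS and at 31.8% in Aza replicate 3. It stood at 41.6%, 49.0% and 49.5% in F-MTAza and at 60.3%, 41.6% and 42.6% in NP-MTAza, all above Aza replicate 3 (limma, unadjusted p = 0.0992, adjusted p = 1). Over matched CpGs alone Aza replicate 3 stood at 34.9% against 36.4% to 61.3%, again below all 6. Sall1, a zinc finger regulator of nephron progenitors, went the other way at 34.7% against 28.1% to 33.7%, but over its matched CpGs Aza replicate 3 was inside the range, at 27.3% against 20% to 28.5%. Wt1, the podocyte and progenitor transcription factor, stood at 66.5% against 56.7% to 80.2%. Fgfr1, a receptor for fibroblast growth factors, stood at 46.0% against 26.4% to 52.7%, with all F-MTAza libraries below and all NP-MTAza libraries above Aza replicate 3. The promoter of Pax2, a regulator of the ureteric bud and nephron, was nearly unmethylated at 0.339% against 0% to 0.692%. Of the 30 tested members of this list, 22 were inside, 5 below (16.7%) and 3 above (10%). Over all tested promoters these shares were 11.6% and 8.74%. The list had a PBS median of 63.7%, and the 1706 promoters at 50 to 75% in PBS had 15.7% below and 7.97% above. Over matched CpGs 20 of 25 members of the list were inside, 3 below and 2 above, against 10.6% below and 9.65% above over all promoters.

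No promoter in the pathways that the added drugs act on passed the test, but neither did any of the 12180 promoters tested. Avpr1a, a vasopressin receptor other than the V2 receptor, stood at 61.4% in Aza replicate 3 and 61.1% to 66.4% in the 6, but over its 30 matched CpGs Aza replicate 3 was below all 6, at 68.6% against 71.1% to 73.7%. Aqp3, a water channel of the collecting duct, stood at 52.9%, above the 50.3%, 49.6% and 47.9% of F-MTAza and the 47.0%, 47.7% and 48.6% of NP-MTAza. Over its 7 matched CpGs it was also above, at 52.5% against 46.0% to 50.3%. All tested promoters had 11.6% below and 8.74% above, and over matched CpGs 10.6% and 9.65%. Of the 33 tested genes of vasopressin, cAMP and calcium signalling, 29 were inside, 3 below and 1 above. Over matched CpGs 17 of 20 were inside, 2 below and 1 above. Of the 35 tested genes of AMPK, mTOR and metformin response, 30 were inside, 2 below and 3 above, while over matched CpGs 22 of 28 were inside, 0 below and 6 above. In that list the promoters of Foxo3, a transcription factor downstream of insulin and AMPK signalling, and Igf1r, the IGF1 receptor, were at 0.622% and 0.300% in Aza replicate 3, and that of Irs2, an insulin receptor substrate, at 21.5% against 16.5% to 31.9%.

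Metformin needs organic cation carriers to enter and leave tubule cells, and Aza needs nucleoside transport and phosphorylation. Only 3 of the 9 metformin transport genes were tested. Slc22a3, an organic cation carrier, stood at 36.4% in Aza replicate 3 against 40% to 56.3%, with 35 reads in its shallowest library, and over its matched CpGs it was inside, at 31.4% against 12.5% to 43.5%. Slc47a2, which exports metformin, stood at 55.7% against 44.0% to 81.5%. Of 12 tested genes of nucleoside uptake and activation, 11 were inside and 1 below (8.33%), against 11.6% below over all tested promoters. Slc29a2, a nucleoside carrier, stood at 9.21% against 7.32% to 16.2%.

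Wnt and Hippo signalling was the list with the most tested members. Of 48 tested, 33 were inside, 9 below (18.75%) and 6 above (12.5%), against 11.6% and 8.74% over all promoters. The list of DNA methylation machinery had a smaller share inside, 66.7% against 68.75%. Over matched CpGs 22 of 33 Wnt and Hippo promoters were inside, 7 below and 4 above, against 10.6% below and 9.65% above over all promoters. Dchs1, a giant cadherin of the Hippo pathway, stood at 57.2% in Aza replicate 3, at 66.8%, 65.3% and 61.5% in F-MTAza and at 65.4%, 65.4% and 62.3% in NP-MTAza, and over its matched CpGs at 56.9% against 60.8% to 65.8%. Sfrp1, a secreted Wnt inhibitor, stood at 47.7% against 48.2% to 57.9%, also below over matched CpGs. Wnt5b, a ligand of the pathway, stood at 37.7% against 41.2% to 57.0%, but inside over matched CpGs, at 39.6% against 34.7% to 56.2%. Their limma p, unadjusted, ran from 0.178 to 0.402.

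Germline promoters are methylated in these cells, and were the list with the highest median in PBS, 89.1%. In Aza replicate 3 the median of the 33 tested was 59.0%. Of these, 26 were inside the range of the 6, 5 below (15.2%) and 2 above (6.06%), with a median difference of 3.31 points. These shares were near those of all 1947 promoters at 75% or more in PBS, 17.2% below and 6.68% above, with a median difference of 2.35 points. Over matched CpGs 19 of 22 germline promoters were inside, 2 below and 1 above. Tdrd1, of the piRNA pathway, stood at 64.2% in Aza replicate 3, at 77.2%, 64.9% and 75.1% in F-MTAza and at 75.6%, 79.4% and 69.1% in NP-MTAza, just below the range, but inside it over matched CpGs. Smc1b, the meiotic cohesin subunit, stood at 59.0% against 52.9% to 65.7%, and Fkbp6, needed for meiosis in males, at 57.1% against 52.1% to 67.05%. Over its 29 matched CpGs Fkbp6 was below the range, at 56.3% against 59.4% to 72.5%.

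The remaining lists are set against the 79.7% of all tested promoters at which Aza replicate 3 was inside the range. DNA methylation machinery had 12 of 18 inside, 4 below and 2 above, but 13 of 15 inside and 0 below over matched CpGs. Interferon and viral mimicry had 16 of 22 inside, 4 below and 2 above, and housekeeping 11 of 14 inside, 1 below and 2 above. Proximal tubule had 13 of 16 inside and 2 below, other nephron segments 16 of 17 and 0 below, and stroma, endothelium and immune cells 8 of 9 and 1 below. Cell cycle, p53 and growth had 30 of 32 inside and 1 below, and imprinted genes 23 of 25 and 1 below. The promoter of Myc, a growth regulator that is raised in cystic kidneys, was at 0.706% in Aza replicate 3 and 0.596% to 1.14% in the 6, and over its 45 matched CpGs at 0.530%, below the 0.684% to 1.22% of the 6. That of Dclre1c, the nuclease Artemis of DNA repair, was at 2.58% against 0% to 9.48%. Lrp2, which encodes megalin and marks the proximal tubule, had a promoter at 22.8% in PBS, 19.7% in Aza replicate 3 and 14.6% to 30.5% in the 6. Methylation of a promoter does not measure expression, so these lists do not check the cell type of the samples.

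**Figure D5:**
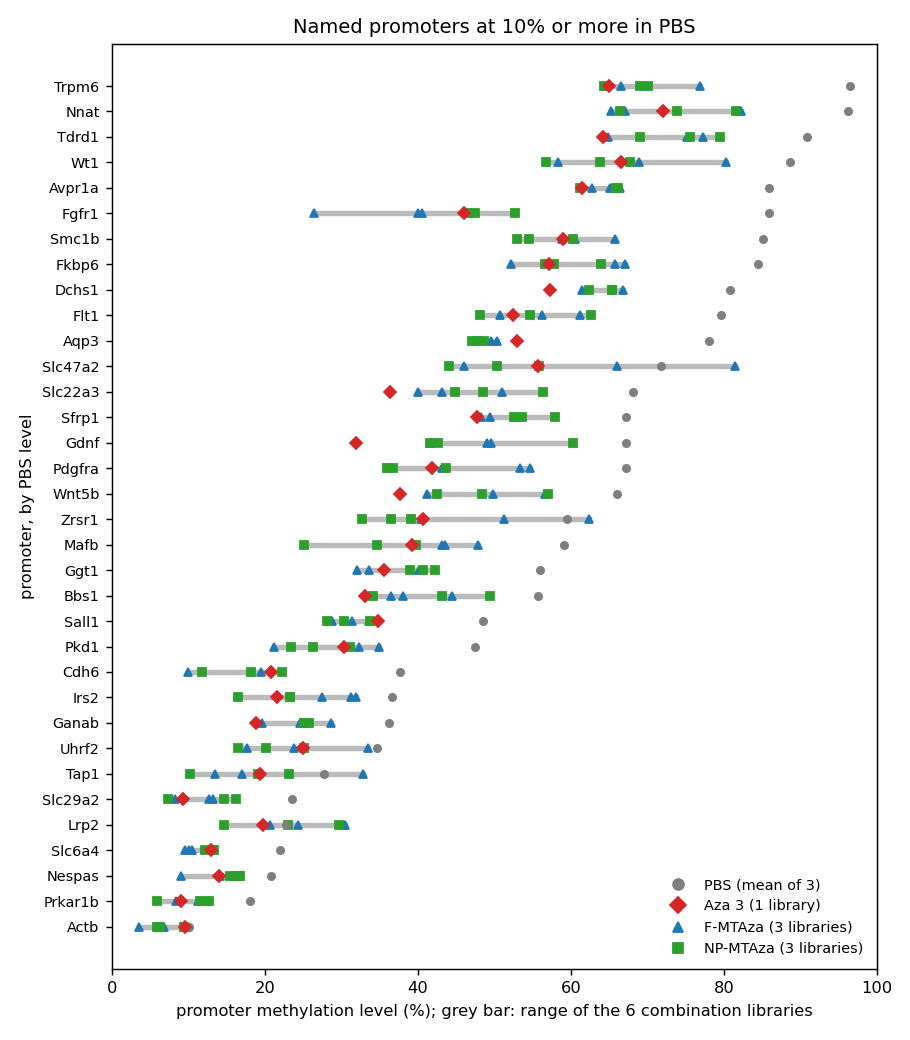
Methylation level (x axis, %) of the promoters named by rule that stood at 10% or more in PBS (y axis, ordered by PBS level). Red diamonds are Aza replicate 3, blue triangles F-MTAza, green squares NP-MTAza, grey bars the range of those 6 libraries and grey points the PBS mean. Most diamonds lie on the grey bar, and Gdnf, Dchs1, Slc22a3 and Wnt5b are among those to its left.

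CpG-dense sequence, taken over promoters and other sequence together, gave the same kind of result. Of the 70688 matched CpGs in this class, 44594 lay in promoters, and those outside promoters were not taken alone. The 70688 matched CpGs with 16 or more CpGs within 100 bp on either side, counted equally, stood at 22.9% in Aza replicate 3, at 24.5%, 24.3% and 24.5% in F-MTAza and at 23.6%, 23.7% and 22.9% in NP-MTAza. Again Aza replicate 3 was inside the range, as it was when weighted by reads, at 23.7% against 22.5% to 26.7%. Cut into tiles of 300 bp with 15 or more CpGs, 17313 tiles had 20 or more reads in each of the 10 libraries. The limma fit called 0 of 17313 tiles (0%), with 712 (4.11%) at an unadjusted p under 0.05 and 0 calls, with 412 at an unadjusted p under 0.05, on a log2 scale. Aza replicate 3 was below all 6 at 9.04% of tiles and above all 6 at 9.61%, and over matched CpGs alone at 9.05% and 8.94% of 12802. Among the 4910 tiles at 75% or more in PBS, these shares were 17.6% and 7.41%. Among the 8471 under 10% the median level of all 3 F-MTAza libraries was 0%, and Aza replicate 3 cannot lie below all 6 where one of them is at 0%, so the shares of 1.75% and 11.1% there say nothing of direction.

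At single CpGs, a likelihood ratio test on pooled reads, with the study's thresholds, compared the reads of 6 libraries with those of 1, and so compares these libraries and not the treatments. Of 686544 CpGs with 5 or more reads in all 7, it called 144 (0.0210%) at q under 0.01 and a difference of 35 points. Of these, 108 (0.0157%) were higher in the combination and 36 (0.00524%) lower. An F test with a dispersion estimated at each CpG called 0, with 13942 (2.03%) at an unadjusted p under 0.05, and limma called 89 (0.0130%), of which 28 were higher and 61 lower in the combination. Whether these tests called the same CpGs was not counted. Leaving out NP-MTAza replicate 3 gave 182 calls and leaving out NP-MTAza replicate 2 gave 107.

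The called CpGs were scattered. The 108 higher ones had a median level of 14.6% in Aza replicate 3 and 75.1% in the combination, with a PBS median of 96.7%, and 107 lay outside the range of the 6. Introns held 40 of them, intergenic sequence 33, exons 26 and promoters 9. The 36 lower ones had medians of 89.0% in Aza replicate 3, 30.0% in the combination and 66.1% in PBS, and 35 lay outside the range. A call needs a difference of 35 points from the pooled 6, so these positions largely follow from the call and add no support to it. The median depth in Aza replicate 3 was 20 reads in both directions. No region joined 3 or more called CpGs within 500 bp. Other CpGs within 50 bp, where there were any with 5 or more reads in all 7, lay on the same side at 81 of 87 of the higher calls and at 18 of 20 of the lower ones, with median differences of 34.2 and -19.4 points. Neighbouring CpGs are read by the same DNA fragments and so are not independent of the call.

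The called CpGs with the most reads in Aza replicate 3 show what such a call rests on, 3 that were higher in the combination and 2 that were lower, on the chromosomes considered. Each is printed on the plus strand of mm9 with 20 bases on either side and the called CpG in capitals.
Kcnu1 intron, chr8:26963725-26963766: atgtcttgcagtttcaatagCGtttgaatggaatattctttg
Itprip and Wdr96, chr19:47969495-47969536: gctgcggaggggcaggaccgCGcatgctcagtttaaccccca
Sf1 exon, chr19:6376294-6376335: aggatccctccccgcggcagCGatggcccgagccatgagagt
Intergenic, chr8:128599110-128599151: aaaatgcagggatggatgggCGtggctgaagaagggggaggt
Dennd1c intron, chr17:57215612-57215653: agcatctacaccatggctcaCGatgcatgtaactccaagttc

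At the CpG in an intron of Kcnu1, a potassium channel gene, 28.6% of 56 reads were methylated in Aza replicate 3. It stood at 76.2%, 72.5% and 53.8% in F-MTAza, at 45.5%, 74.3% and 70.5% in NP-MTAza and at 95.7% in pooled PBS. The CpG in the overlap of Itprip and Wdr96 stood at 31.8% against 61.1% to 76.0%, and that in Sf1, a splicing factor, at 48.8% against 77.1% to 97.1%. The intergenic CpG on chromosome 8 stood at 87.5% against 27.8% to 64.5% and that in Dennd1c, a Rab exchange factor, at 89.2% against 40% to 81.2%. The 5 CpGs shown had 37 to 56 reads in Aza replicate 3 and lay outside the range of the combination, a position that the call largely sets.

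Library by library, Aza replicate 3 was no farther from the combination than its members were from each other. The mean absolute difference in level over matched CpGs was 14.0 to 15.2 points between Aza replicate 3 and the F-MTAza libraries, and 12.5 to 13.8 between it and the NP-MTAza libraries. It was 15.6 to 16.6 between F-MTAza libraries, 12.9 to 14.0 between NP-MTAza libraries and 13.6 to 15.8 between libraries of different combination groups. Between Aza replicate 3 and PBS it was 24.7 to 26.3. These distances include counting error, which is larger in the shallower F-MTAza libraries. Aza replicate 3, with 47574333 reads, was deeper than each of those, which had at most 40390743. The distances therefore cannot decide whether its levels lay apart from the combination.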

How the data were processed

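DNA methylation was measured in 12 libraries, 3 per group, grouped by their treatment label. The authors digested DNA with MspI, used Trim Galore 0.4.4, Bowtie2 and Bismark 0.20.1 with mm9, per the submitters' processing notes, merged strands and kept CpGs with 5 or more reads. The deposited values are a percent of methylated reads, rounded down, and a fraction written as methylated over total read counts, from which all levels here were computed. Reads of a CpG listed more than once were summed. Depth, 25336747 to 65817118 reads per library, leaves a wide counting error at single CpGs, where reads carry no molecular identifiers. Ranges are of observed levels, so they hold counting error together with the spread between libraries.

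Matched CpGs lay on chromosomes 1 to 19 and X with 5 or more reads in 10 libraries, without Aza replicates 1 and 2. Genes came from an mm9 annotation and sequences from its genome. Library values were compared by two-sided exact permutation tests, promoters and tiles with limma 3.58.1 in R 4.3.3 (arcsine square root, Benjamini-Hochberg over all features) and CpGs by a likelihood ratio test. Other tools were samtools 1.23.1, matplotlib 3.10.9, pandas 2.3.3, scipy 1.17.1, numpy 2.4.6 and Python 3.11.15. Tests were tried on simulated data. One called CpG that would have been shown with the others is not reported here. Members, gene lists and the rule for named genes (from each list the 3 tested promoters with the most reads in their shallowest library, and 12 genes of the study) were chosen with earlier results of these data known. Alternatives changed depth, weighting, classes, libraries, scale and test, and CpGs with 200 or more reads and unmatched CpGs were left out in alternatives chosen after seeing the data.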

Additional observations from a re-analysis of the deposited data

Results flagged for a closer look

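Over promoter CpGs weighted by reads, all 3 F-MTAza libraries stood above Aza replicate 3 and all 3 NP-MTAza libraries below it, and the effects of the combinations differed by 4.23 points. The difference was not tested, and with each CpG counted equally both means were above Aza replicate 3, by 1.13 and 0.404 points. The promoter of Fgfr1 showed the reverse order, with F-MTAza below and NP-MTAza above Aza replicate 3 and a difference of -13.2 points, again not tested.

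Of 63 sets of 6 combination libraries examined for a library far from the rest, 2 held one, where chance gives about 1 in 20. F-MTAza replicate 1 stood at 0.113% at the promoter of Foxc1, a forkhead factor of kidney development, with the nearest library at 0.363%. F-MTAza replicate 2 stood at 8.99% at the promoter of Nespas, an imprinted antisense transcript of the Gnas locus, with the nearest at 14.1%.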

How the results depend on the processing

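Over 13 results and 199 alternative values, 157 values were counted as unchanged. For position-free alternatives with a permutation test this needed the same sign and p on the same side of 0.05, not a similar size. The mean difference was 0.182 points, and 0.961 at 10 reads and 1.17 with F-MTAza only were both counted as unchanged. Position-free differences turned in sign easily: the mean became -0.806 points with NP-MTAza only, -0.736 with each CpG counted equally and -0.192 without F-MTAza replicate 3, and the 90 to 100% share became 0.199 at 10 reads and 0.186 with F-MTAza only. With Aza replicate 3 alone, or with libraries of 1 barcode set, the mean difference was 1.02 and 1.38 points and the 90 to 100% share 1.46 and 1.47, and the 0 to 10% share was 0.0774 with 1 barcode set. Leaving out each library in turn gave -0.234 to 0.650 for the mean, -0.602 to 2.41 for the 0 to 10% share, -1.30 to 0.224 for the 40 to 60% share and -1.32 to 0.374 for the 90 to 100% share. By position, differences in level are weighted by reads here unless stated otherwise. With F-MTAza only and NP-MTAza only, the difference was 2.59 and -0.469 points at all matched CpGs and 2.46 and 0.0832 at highly methylated CpGs. It was 2.28 and -1.94 in promoters, and -3.85 and -1.22 for the share at 40 to 60%. With each CpG counted equally, it was 2.39 and 0.963 at all matched CpGs, 3.78 and 1.48 at highly methylated CpGs, and 1.13 and 0.404 in promoters. At 10 reads, the read-weighted difference was 0.311 at all matched CpGs and -0.846 in promoters, where it was 1.06 and 0.170 at 5 reads. At highly methylated CpGs it was 0.309 at 10 reads, 2.63 with each CpG counted equally and -0.0858 with the class at 80% or more. Without CpGs of 200 or more reads it was 1.93 at all matched CpGs, 2.67 at highly methylated CpGs and 1.43 in promoters. Leaving out each combination library gave 0.611 to 1.58, 0.992 to 1.64, 0.0669 to 0.108, -0.404 to 0.852, 1.35 to 2.20 and -3.14 to -2.16 for the 6 results by position, in the order all, highly methylated, unmethylated, promoters, CpG-dense and 40 to 60% share. With all 3 Aza libraries used by position these were 5.22, 12.3, -27.9, 5.79, -11.3 and -0.550, and 4975 promoters, 4072 tiles and 5886 CpGs were called, where the positions of Aza replicates 1 and 2 do not follow the other libraries. Elsewhere promoters called were 0, or 1 without PBS replicate 1, and tiles 0, or 1 with 5 reads in every library. CpG calls were 144, and 56 at 10 reads, 89 by limma, 0 by the F test and 107 to 182 without one library. With a replicate block, the mean differed by 0.182 points and 0 promoters and 0 tiles were called. Deviations of same-numbered libraries from their group means had correlations from -0.0802 to 0.0503 across promoters. These deviations include counting error, so the correlations cannot decide whether the numbers pair the libraries. The causes of these changes were not tested. With 1 Aza library by position, no difference can be told from the spread between Aza libraries.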

Other observations

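On chromosome X, where 9339 CpGs were matched and each was counted equally, Aza replicate 3 stood at 43.3% and the 6 combination libraries at 42.9% to 45.6%, so that it was inside the range. On the autosomes it was below, at 41.0% against 41.2% to 43.8%, but weighted by reads it was inside the range on both, at 44.1% against 42.7% to 46.1% on X and 49.6% against 48.1% to 52.95% on the autosomes. Nnat, an imprinted gene of the nervous system, had a promoter at 72.1% in Aza replicate 3 and 65.2% to 82.3% in the 6, and Zrsr1, an imprinted splicing factor gene, one at 40.6% against 32.6% to 62.4%.

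Some promoters of the lists stood well outside the range, and these were chosen after their values were seen. Stk31, a testis kinase gene, stood at 44.3% in Aza replicate 3, at 60.8%, 81.9% and 72.7% in F-MTAza and at 65.6%, 63.6% and 73.3% in NP-MTAza (limma, unadjusted p = 0.00952, adjusted p = 1), and over its 14 matched CpGs at 37.1% against 50.4% to 86.4%. Hnf4a, a transcription factor of the proximal tubule, stood at 24.7% against 36.5% to 50.7%, with 38 reads in its shallowest library. Oas2, an interferon-induced gene, stood at 44.0% against 54.9% to 72.0%, and Acta2, smooth muscle actin, at 28.2% against 35.9% to 46.0%. In the other direction, Ascl2, an imprinted Wnt target, stood at 54.7% against 22.9% to 42.7%, and Tex19.1, a germline gene, at 86.5% against 19.05% to 75.4%, with 21 reads in its shallowest library. Neither of the last genes had enough matched CpGs to repeat the comparison over them. Of 356 tested promoters of the lists, 8 had an unadjusted p under 0.05, against 2.27% over all promoters.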
